A study of Mus musculus with 2 samples.

Results

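The genes described are those of the mouse MHC class I molecules: the light chain gene B2m, the classical heavy chain genes H2-K1 and H2-D1, and the non-classical heavy chain genes H2-Q4, H2-Q6, H2-Q7, H2-T10, H2-T22, H2-T23 and H2-M3. Members were taken by name, as non-control probes whose accession resolved to one of these 10 symbols in a RefSeq gene table. Of the 10 genes 9 were found, with 10 probes, among 20655 gene symbols on the array. No probe resolved to H2-T22, which was not analysed here. The measurements came from 2 Agilent mouse arrays, each read in the Cy3 channel alone, with RNA of RAW246.1 cells, a cultured line that the labels call macrophage, grown in DMEM. One culture had been given synthetic miR-122, a microRNA of hepatocytes, at a stated 5 μg/mL, and the other PBS as the mock treatment. The treatment text of the labels is the same for both samples and the title of the miR-122 sample says that it lacked the microRNA, so the groups rest on the source name and description. Each group held 1 array, so no difference below has a replicate check, an SD between cultures or a p-value. The labels give neither the strain of the cells nor the time of exposure.

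A class I molecule is a heavy chain, a peptide and beta-2-microglobulin, assembled in the endoplasmic reticulum and carried to the cell surface. Classical heavy chains show peptides of the cell's own proteins to CD8+ T cells, and non-classical ones have narrower tasks, many of them as ligands of receptors on natural killer cells and unconventional T cells. Class I genes are transcribed in most nucleated cells, and type I and type II interferons and NF-kB raise their transcription through an enhancer with an NF-kB site beside an interferon-response element and through a module bound by NLRC5.

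The stretches of promoter with these elements are shown because several of the genes share these elements almost letter for letter. They are RefSeq sequences of GRCm38.p6, which represents C57BL/6J, and can differ from the alleles of these cells. Of the 10 members, 9 had a promoter in the table, and H2-T10 had none. Each line holds 50 bases upstream of the annotated start. Capitals mark the NF-kB motif GGGATTNCC and the letters TTTCACTT of the class I interferon-response element in the first 6 lines, and the consensus form GAAANNGAA, on either strand, in the lines of B2m and H2-T23.
H2-K1: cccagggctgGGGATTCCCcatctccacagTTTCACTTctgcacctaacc
H2-D1: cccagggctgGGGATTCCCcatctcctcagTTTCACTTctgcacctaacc
H2-Q4: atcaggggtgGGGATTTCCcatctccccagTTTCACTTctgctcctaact
H2-Q6: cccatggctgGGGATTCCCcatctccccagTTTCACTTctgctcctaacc
H2-Q7: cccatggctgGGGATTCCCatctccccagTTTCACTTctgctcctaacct
H2-M3: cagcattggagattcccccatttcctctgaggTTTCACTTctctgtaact
B2m: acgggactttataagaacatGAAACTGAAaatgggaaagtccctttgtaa
H2-T23: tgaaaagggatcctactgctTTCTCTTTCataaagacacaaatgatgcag

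The lines lie at chr17:34000418-34000467 on the minus strand for H2-K1, chr17:35262914-35262963 on the plus strand for H2-D1, chr17:35379434-35379483 on the plus strand for H2-Q4 and chr17:35424668-35424717 on the plus strand for H2-Q6. Those of the other genes lie at chr17:35439013-35439062 on the plus strand for H2-Q7, chr17:37270101-37270150 on the plus strand for H2-M3, chr2:122147528-122147577 on the plus strand for B2m and chr17:36032795-36032844 on the minus strand for H2-T23. H2-K1 and H2-D1 had 49 of 50 bases in common in this window. H2-Q4 had 43 in common with H2-K1, and the exact site GGGATTCCC was changed in it by C7T, counted from 1 at the 5′ end of the H2-K1 site. In H2-Q7 the NF-kB and interferon elements lay 10 bases apart, against 11 in the 4 other K, D and Q genes. Searched on both strands in the 250 bases before the start, GGGATTCCC was present in 4 of the 9 members and in 0.301% of 32851 promoters, and GGGATTNCC, which includes it, in 5 members and 0.822% of promoters. TTTCACTT was present in 7 members, H2-T22 among them, and in 1.36% of promoters, and GAAANNGAA in B2m, H2-T22 and H2-T23 and in 7.13% of promoters; both forms overlapped in H2-T22. TGACG, the core of a CRE-like element, was present in 7 members and 17.8% of promoters, and CCAAT in all 9 members with a promoter and 33.8% of promoters. These matches describe letters in the reference and not occupied sites.

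Every one of the 9 measured genes had a higher signal on the miR-122 array than on the PBS array, and most had differences close to one another. After scaling, 60.3% of all named genes detected on both arrays had a positive difference and 39.7% a negative one. The processed signal, background-subtracted by the scanner software, is given first as deposited. Differences then are log2 values after the 75th percentile of each array was subtracted, miR-122 minus PBS. This scaling added 0.28 to each log2 difference of the deposited signals, because the 75th percentile was lower on the miR-122 array. All 10 probes were well above background on both arrays and none was saturated. The scanner software assigned an error of 10% to nearly every one of these signals, which for a probe on both arrays gives an error of 0.20 in the log2 difference. That error covers the spot and not the culture.

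B2m, on chromosome 2, encodes the light chain that every class I heavy chain needs to reach the surface. It had a signal of 64636 on the miR-122 array and 45683 on the PBS array. The difference was 0.78 after scaling, 1.71-fold higher.

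H2-K1 encodes a classical heavy chain, H-2K, and has a probe printed 10 times on each array. Its spots ranged over 25535 to 30174 with a median of 29096 on the miR-122 array, against 16284 to 18504 with a median of 17098 on the PBS array. The means over spots were 28227 ± 1756 on the miR-122 array and 17156 ± 599 on the PBS array (SD over 10 spots of 1 array, which measures printing and scanning only). The scaled difference was 0.99, 1.99-fold higher. A second H2-K1 probe gave signals of 8151 on the miR-122 array and 4871 on the PBS array, a difference of 1.02. The probes of H2-K1 thus differed from each other by less than the error of either.

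**Figure D1:**
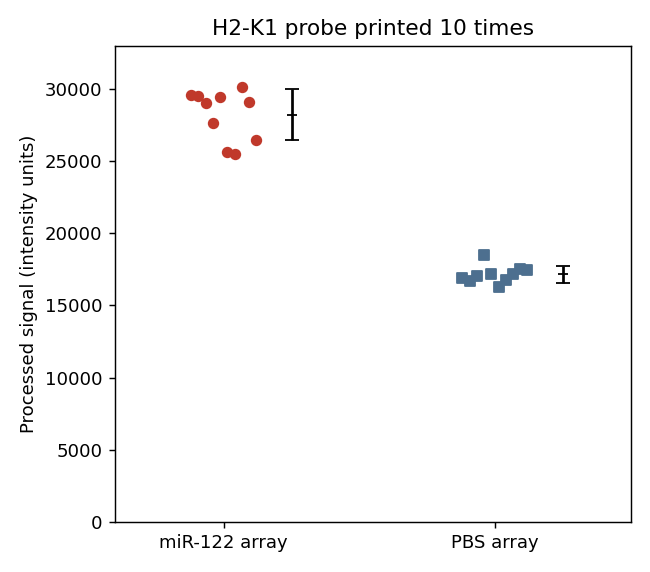
Processed signal (intensity units, axis from 0) of the 10 spots of the H2-K1 probe on the miR-122 array and on the PBS array, with the mean and SD over spots beside them. The spots run from 25535 to 30174 on the miR-122 array and from 16284 to 18504 on the PBS array. Their spread measures printing and scanning only.

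H2-D1, the other classical heavy chain gene, encodes H-2D. Its signal was 16413 on the miR-122 array and 10800 on the PBS array, a scaled difference of 0.88 or 1.84-fold. It differed from H2-K1 by less than the error of 1 probe.

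The Q region genes lie next to H2-D1 on chromosome 17. H2-Q6 and H2-Q7 belong to the group that encodes Qa-2, a molecule held on the membrane by a lipid anchor. H2-Q6 had a signal of 5128 on the miR-122 array and 3175 on the PBS array, a scaled difference of 0.97. H2-Q7 had 9565 on the miR-122 array and 6031 on the PBS array, a scaled difference of 0.94. The Qa-2 genes are near-copies of one another, and a probe named for one may bind transcripts of another, so these values may not be separate measurements. H2-Q4, which encodes the class I molecule Qb-1, stood lowest in difference. Its signal was 23685 on the miR-122 array and 21926 on the PBS array. The deposited signals differed 1.08-fold, within the error of the spot, and the scaled difference was 0.39.

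The T region genes gave the largest difference and one close to that of H2-K1. H2-T23 encodes Qa-1, which presents leader peptides of other class I chains to CD94/NKG2 receptors of natural killer cells. Its signal was 12555 on the miR-122 array and 7573 on the PBS array, a scaled difference of 1.01. H2-T10 encodes a ligand of gamma-delta T cell receptors that carries no peptide, and has H2-T22 as a near-copy whose transcripts its probe may share. It had a signal of 438 on the miR-122 array and 111 on the PBS array, a scaled difference of 2.26 or 4.79-fold. With normexp, another background correction, the difference was 1.74 or 3.35-fold, so the size for this dim probe depended on the correction while it stayed the largest of the 9 genes. H2-M3, which presents peptides with an N-formyl group from bacteria and mitochondria, had a signal of 7513 on the miR-122 array and 5591 on the PBS array. Its scaled difference was 0.70, or 1.63-fold.

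**Figure D2:**
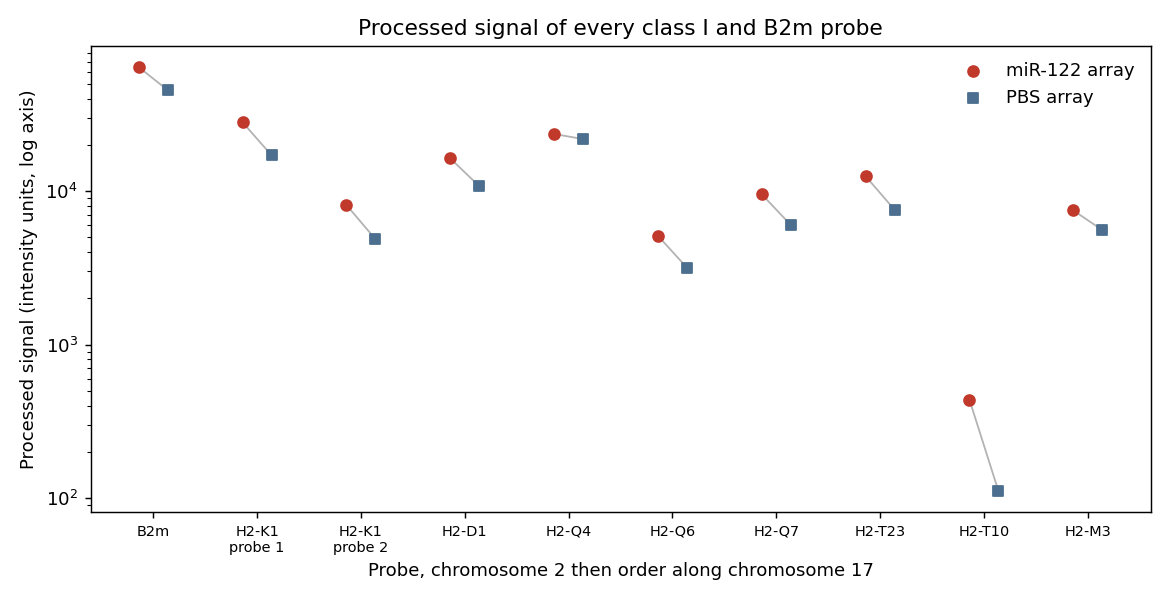
Processed signal (intensity units, log axis) of each of the 10 probes on the miR-122 array (circles) and the PBS array (squares), B2m first and then in the order of the genes along chromosome 17. Each circle stands above its square, least for H2-Q4 (23685 and 21926) and most for H2-T10 (438 and 111). Heights of different probes cannot be compared with each other.

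Counted by size, 2 of the 9 genes, 22.2%, were 2-fold or more higher on the miR-122 array, against 4.57% of the 15020 named genes detected (well above background) on both arrays, and 0 were 2-fold or more lower, against 1.78%. The 2 genes were H2-T10 and H2-T23. This count rests on values that straddle the line, since H2-T23 at 1.01 was just inside it and H2-K1 at 0.99 just outside, a gap far below the error of a probe. With median scaling, quantile normalization, loess, normexp or the authors' own log2 values, H2-T10 was the only member past 2-fold. At 1.5-fold, 8 of the 9 genes, 88.9%, were higher, against 12.1% of all genes, and 0 were lower, against 5.99%. The exception was H2-Q4. At 4-fold, 1 gene, H2-T10, was higher, against 0.812% of all genes, and 0 were lower, against 0.113%. The median difference of the 9 genes was 0.94, or 1.92-fold, and that of all 15020 genes was 0.093. The median of all genes changed sign with the authors' values, and with median scaling or quantile normalization. Set against the median of all genes, the members' median was 0.85 higher, between 0.76 and 0.87 over the other ways of processing, and all 9 genes lay above that median under each of them. Without scaling, an alternative added after seeing the data, the members' median was 0.67. Without scaling or with median scaling, the distance to the median of all genes stays 0.85 by construction. These settings alter each array by a constant, which cancels in that distance.

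**Figure D3:**
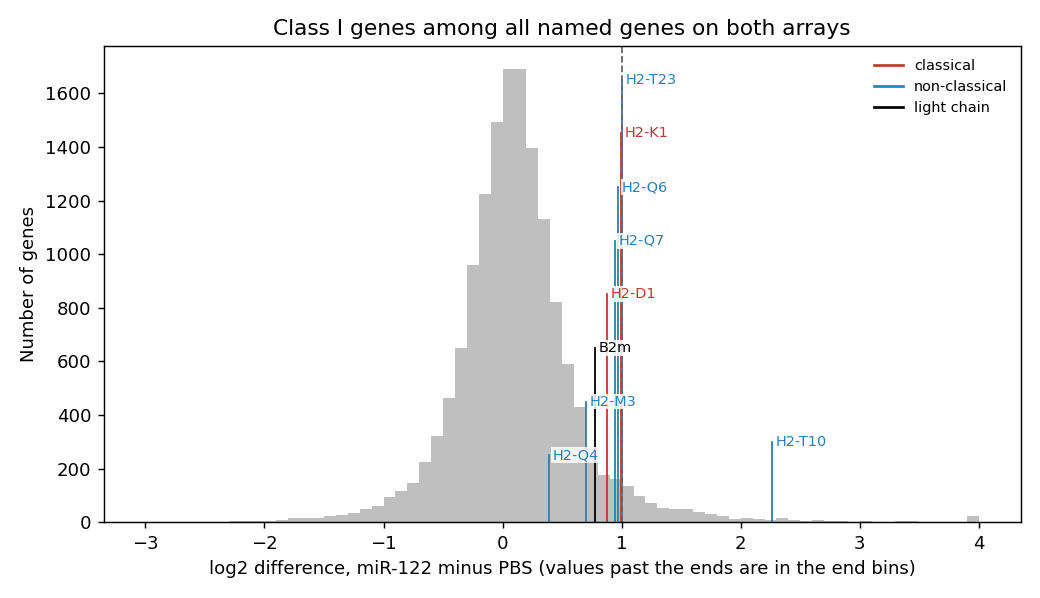
Number of genes by log2 difference, miR-122 minus PBS, for the 15020 named genes on both arrays, with a line at the value of each of the 9 measured genes, B2m among them (line heights only separate the names) and a dashed line at 2-fold. The members lie to the right of the bulk of genes, from 0.39 for H2-Q4 to 2.26 for H2-T10, and most sit between 0.70 and 1.01.

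Among all genes, 0.613% had a larger difference than H2-T10. The shares were 4.51% for H2-T23, 4.63% for H2-K1, 4.92% for H2-Q6, 5.16% for H2-Q7, 5.86% for H2-D1, 7.26% for B2m, 8.64% for H2-M3 and 21.7% for H2-Q4. In order of difference, neighbours from H2-T23 down to H2-M3 differed by less than the error of 1 probe. H2-T10 stood above H2-T23 by far more than that error. A gap between 2 probes carries the error of both, and H2-Q4 was less clearly set apart. H2-Q4 stood below H2-M3 by little more than 0.30, the pooled SD of single probes' log2 differences around the mean of their gene over 3573 genes. A gap between 2 probes varies by more than that SD. Leaving out H2-T10, the 8 other genes had a median of 0.91 and an SD over genes of 0.21.

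Classical and non-classical heavy chains did not separate. The 6 measured non-classical genes had a median difference of 0.96, with a range of 0.39 to 2.26, and the 2 classical genes one of 0.94, with values of 0.99 and 0.88 inside that range. The medians, classical minus non-classical, differed by -0.018, and by -0.072 to 0.020 over the other ways of processing, so the sign turned with normexp. This is far below the error of a probe and was not tested. Of the 8 heavy chain genes, 6 had a larger difference than B2m and 2, H2-M3 and H2-Q4, a smaller one. H2-M3 and B2m were closer than the error of a probe, and their order turned with quantile normalization, loess and the authors' values. The median difference over heavy chains was 0.18 above that of B2m. By position along chromosome 17, the K, D, Q, T and M regions each held at least 1 gene with a difference of 0.70 or more, and the Q region held both H2-Q4 at 0.39 and its neighbour H2-Q6 at 0.97.

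**Figure D4:**
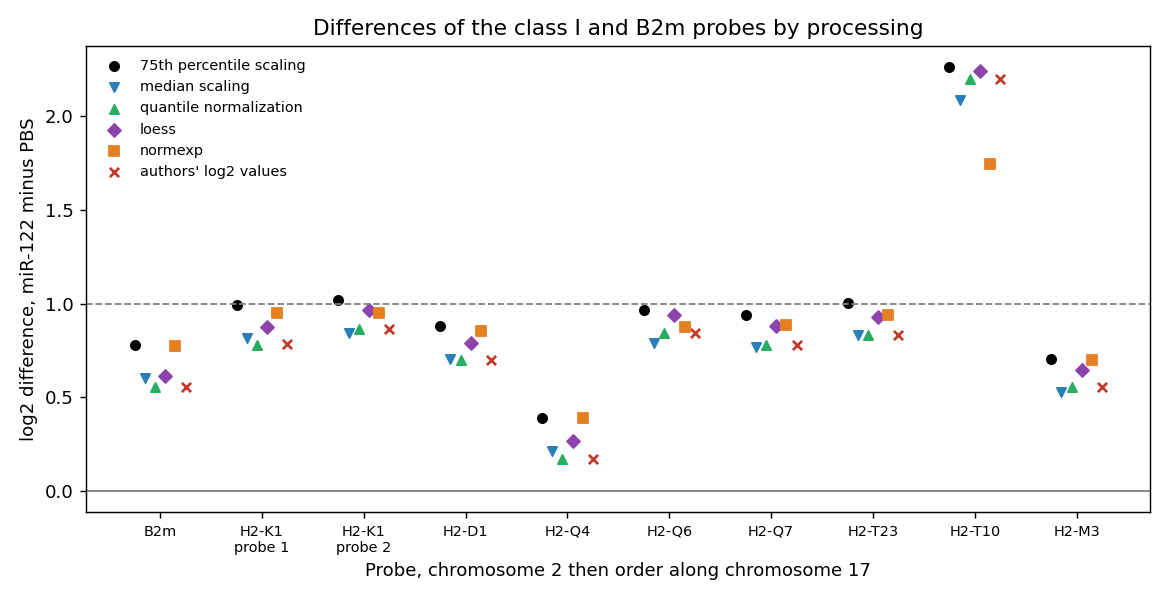
Log2 difference, miR-122 minus PBS, of each of the 10 probes under 6 ways of processing, B2m first and then in the order along chromosome 17; the dashed line is 2-fold. The order of the probes changes little between the settings, and only H2-T10, between 1.74 and 2.26, stays above the line in all of them.

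Other class I heavy chain genes of the H2 complex gave values of the same size. Of 25 further genes listed, 16 had a probe and 9 were well above background on both arrays. Their median difference was 1.04. Of these 9 genes, 8 had positive differences, 6 passed 2-fold upward, against 4.57% of all genes, and 0 passed it downward, against 1.78%. H2-Q8, another Qa-2 gene, was 2.65-fold higher, H2-T24 2.23-fold, H2-M9 2.20-fold, H2-Q10 2.07-fold and H2-M11 2.05-fold higher. H2-M9 was dim, and was 1.48-fold higher with normexp. Over the ways of processing the count past 2-fold upward varied between 1 and 7. The 7 came without the filter on dim probes. In that setting all 16 genes with a probe were counted, and 6.57% of all genes passed 2-fold upward. H2-M10.4, well above background on the miR-122 array alone, was at least 1.59-fold higher, and its measured signals differed 1.35-fold with normexp. Accessions under these names include near-copies and transcripts of pseudogenes, and whether their probes bind transcripts of H2-K1, H2-D1 or the Q genes was not tested, because probe sequences were not used here.

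Genes for the supply and loading of class I peptides were partly higher. The median difference of the 13 genes measured was 1.05, and 8 of them passed 2-fold upward, against 4.57% of all genes, and 0 downward, against 1.78%. The count was 5 with median scaling, quantile normalization, the authors' values or no scaling. Psmb10, Psmb9 and Psmb8, the catalytic subunits of the immunoproteasome, were 5.58-fold, 5.47-fold and 2.80-fold higher, and Tap1 and Tap2, the subunits of the peptide transporter, 5.36-fold and 2.58-fold higher. With normexp Tap1 was 3.32-fold higher. The general chaperones of the endoplasmic reticulum that also serve class I assembly had smaller differences, 0.14 for Calr, -0.080 for Canx and -0.077 for Pdia3, and the sign for Calr turned with median scaling. The 7 constitutive proteasome beta subunits had a median of 0.17, which was -0.0053 with median scaling. Of these 7 genes 0 were past 2-fold in either direction, which is close to the shares of all genes.

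Of 15 transcription factor genes with a known part in class I expression, 13 were well above background on both arrays, all with positive differences, with 3 of them past 2-fold, against 4.57% of all genes, and 0 past it downward, against 1.78%, and their median was 0.58. Nlrc5, the coactivator of class I genes, had a level of 4.29 on the miR-122 array and 2.07 on the PBS array, as log2 signal relative to the 75th percentile, and was 4.65-fold higher. Irf1, an interferon-induced activator, was 4.43-fold higher and Stat2 3.03-fold higher. Among the NF-kB subunits in the list, Rel had a difference of 0.71, Relb of 0.65, Nfkb1 of 0.58 and Rela of 0.26. The sign for Irf2, with a difference of 0.082, turned with median scaling.

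Relatives outside the H2 complex and class II genes had smaller medians. Of 14 class I-like genes, 7 were measured on both arrays with a median of 0.25. Past 2-fold were 0 of these 7 in either direction, against 4.57% of all genes higher and 1.78% lower. With 7 genes, 0 is close to both shares. Ulbp1, an NKG2D ligand gene, had the largest difference at 0.67 (0.40 with normexp), followed by Procr, the protein C receptor gene, at 0.49. The NKG2D ligand gene Raet1e had -0.24. Mr1, which encodes a presenter of microbial vitamin metabolites, was at least 1.51-fold lower, well above background on the PBS array alone, with the sign of its measured difference turning under normexp. The class II chains and accessory genes had a median of 0.26 over 7 genes, a median that was -0.026 with quantile normalization. Of these 7 genes 0 were past 2-fold in either direction, again close to the shares of all genes. A further 2 class II genes were detected on the PBS array only. H2-Eb2, a class II beta chain gene, was at least 4.51-fold lower, with a measured difference of -2.47, and 1.40-fold lower with normexp. H2-DMb1, a subunit gene of the class II peptide exchange factor, was lower by at least 0.58 on the log2 scale, with a measured difference of -1.10, whose sign turned under normexp. Of the genes listed as class I receptors, 6 of 12 were measured on both arrays with a median of 0.54. That median lay between 0.27 and 0.58 over the other ways of processing, and was 0.26 without scaling. The Ly49 gene Klra2 was 2.23-fold higher, and Pirb, an inhibitory receptor for class I on myeloid cells, had a difference of -0.22. The inhibitory receptor gene Lilrb4a, whose binding of class I was not examined here, had a difference of 0.63. The CD8 beta chain gene Cd8b1 had 0.97 (0.39 with normexp). Klra1, another Ly49 gene, was 1.75-fold lower with a difference of -0.80 (-0.50 with normexp). Klra2 was under 2-fold with median scaling, normexp or no scaling.

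**Figure D5:**
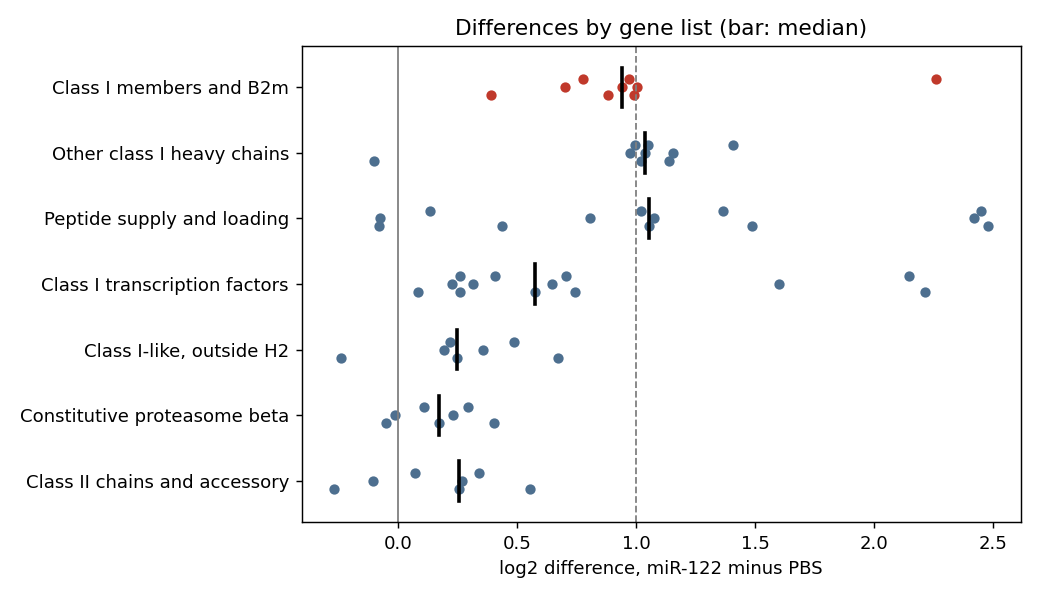
Log2 difference, miR-122 minus PBS, of the genes on both arrays in 7 lists, with the median of each list as a bar and 2-fold as a dashed line. The class I members (median 0.94), the other class I heavy chains (1.04) and the peptide supply and loading genes (1.05) lie to the right of the class I-like (0.25), constitutive proteasome (0.17) and class II genes (0.26).

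Of 10 macrophage markers, 8 were well above background on both arrays, Mertk on neither, and Cd68 had no probe that resolved to it. Of these 8 genes 4 had positive and 4 negative scaled differences, with a median of -0.16. The deposited signal, not scaled, summed over the 9 markers with a probe was 59875 on the miR-122 array and 88359 on the PBS array. Most of it came from Cd14, with 30847 on the miR-122 array and 31514 on the PBS array, and Csf1r, with 22246 on the miR-122 array and 46202 on the PBS array. Fcgr1, the high-affinity IgG receptor gene, had a difference of 3.34 (2.39 with normexp) and Spi1, a myeloid transcription factor gene, one of 0.58. By their brightest probes Itgam was 1.80-fold, Csf1r 1.71-fold and Lyz2 1.64-fold lower. Dimmer probes of Itgam gave differences of 0.36 and -0.12, and those of Csf1r -0.60 and -0.060. Of 8 T and NK cell markers, 4 were well above background on the miR-122 array and 5 on the PBS array, with a summed signal of 1491 on the miR-122 array and 1683 on the PBS array; Cd3d was well above background on neither array. The B cell markers summed to 93.6 on the miR-122 array and 82.8 on the PBS array, with Ms4a1 on neither array. The fibroblast markers summed to 106 on the miR-122 array and 92.9 on the PBS array, and the hepatocyte markers to 95.0 on the miR-122 array and 73.2 on the PBS array, with Alb on neither array. Dendritic cell markers summed to 26706 on the miR-122 array and 31113 on the PBS array, nearly all of it from Siglech. The 4 dendritic cell markers on both arrays had positive scaled differences with a median of 0.51, of which Zbtb46 was 8.51-fold higher (3.42-fold with normexp) and Ccr7 1.74-fold higher, and Siglech, at 0.045, turned sign with loess, normexp, the authors' values and median or quantile scaling. These values of Siglech, Zbtb46 and Flt3 come from the brightest probe of each gene. Another probe of each was well above background on neither array, and why the probes differed was not tested. The part of cell composition in the class I differences was not tested. In RNA of a whole culture, more cells with class I transcripts and more transcripts in each cell cannot be told apart.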

How the data were processed

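Scanner files deposited by the authors give the processed intensity of each spot, from which Feature Extraction 11.0.1.1 had subtracted background (per the file headers), its error, and the median intensity of spot and local background. The deposited series matrix holds the authors' log2 values, and no source used here says how they were normalized. Their median is 5.16 in both columns, and the correlation of each column with the log2 processed signals of the same array was 0.997, so the scale is log2, genes are not centred and columns run as labelled. For the members, the authors' values gave nearly the same differences as quantile normalization, such as 0.782 for H2-K1 and 0.173 for H2-Q4 in both. These settings are therefore not separate checks.

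Of 44397 spots, 1377 controls were left out, as were 196 flagged spots on the miR-122 array and 145 on the PBS array. Log2 processed signals were averaged by probe and the 75th percentile subtracted; as deposited, that percentile was -0.28 apart, miR-122 minus PBS, and the median -0.10. Of 39429 probes, 27228 matched 1 symbol each, 20655 in all, through accessions without versions in a RefSeq table of GRCm38.p6; the arrays name build mm9, so that table gave names and order only. A gene is represented by the brightest of its probes that were above background on either array, and every probe of a class I member is given. For genes detected on 1 array, the bound comes from the dimmest probe still detected on the other array, or from the gene's own signal there if brighter. With 1 array a group no test was run, and genes were counted at 2-fold; the counting was tested on simulated data. The number of arrays limits precision.

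The members and lists were chosen with earlier results of these data known. Named are all members, up to 5 genes a list with the largest difference, up to 3 with a bound, and Nlrc5 and Irf1. Calr, Canx, Pdia3, Cd3d, Ms4a1, Siglech, Alb, Mertk, Relb, Nfkb1, Rela and Irf2 were named after their values were seen. No genes of like pattern were sought, since 2 arrays give 1 difference a gene. One gene that this rule names is not reported here. R 4.3.3, limma 3.58.1, Python 3.11.15, numpy 2.4.6 and pandas 2.3.3 were used.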

Additional observations from a re-analysis of the deposited data

How the results depend on the processing

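All 9 member genes kept positive differences under median scaling, quantile normalization, loess with a span of 0.3, the authors' log2 values, normexp with an offset of 50, flagged spots kept, the mean over probes, no filter on dim probes, and no scaling, the last added after seeing the data. The number at least 2-fold higher was 1 under median scaling, quantile normalization, loess, normexp, the authors' values and no scaling, 3 with the mean over probes, and with thresholds of 1.5-fold and 4-fold it was 8 and 1. The median of the members was 0.67 without scaling. Of all genes, 3.04% were 2-fold or more lower with median scaling, 2.59% were higher and 0.945% lower with normexp, 2.62% and 3.85% without scaling, 12.1% and 5.99% at 1.5-fold, and 0.812% and 0.113% at 4-fold. Higher calls were 71.9% of all calls past 2-fold after 75th percentile scaling, 50.8% with median scaling, 59.9% with quantile normalization and 40.5% without scaling. The median of the class II list was -0.026 with quantile normalization, -0.032 with loess, -0.028 with the authors' values and -0.019 without scaling, which also turned the median of the class I-like list to -0.029. For all of these the cause was not tested. No paired analysis was possible because each group holds 1 array. Normexp used median spot intensities, since mean ones are not among the columns used here.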
